A study of Mus musculus with 4 samples.

Results

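The genes described here encode the enzymes and carriers that bring pyruvate into mitochondria, turn the citric acid cycle and move reducing equivalents across the inner mitochondrial membrane. They were taken from a list of 30 gene symbols, each represented by the brightest probe set annotated to that symbol alone, and 29 of the 30 were measured among 18193 genes in all. No probe set named Mpc2 was found in the annotation used here. Of the 29, 7 belong to pyruvate entry, 12 to the cycle itself and 10 to the shuttles and related carriers.

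Mouse heart RNA was profiled on 4 arrays, 2 labelled wild type (NTg) and 2 labelled transgenic (Tg-Sirt1). Per the labels' protocols hearts were frozen after euthanasia by pentobarbital (120 mg/kg). The labels name no promoter, line, age or sex. The series design text names 2 transgenic and 2 wild type mice. The p-values measure only the spread between these samples, and part of that spread may be technical. NTg 1 and the array labelled Tg-Sirt1 1 were almost copies of each other: over all genes the SD of their differences was 0.0689 log2 units, against 0.288 to 0.403 for the other 5 pairs of arrays. Over the 29 genes these 2 arrays differed by a median of 0.01 and at most 0.13. Sirt1, which encodes a protein deacetylase that uses NAD, gave 7.30 and 7.17 in NTg and 7.16 and 7.93 under the Tg-Sirt1 label, so it was high only on Tg-Sirt1 2. Whether this probe set can detect the transgene is not known from the labels. The arrays therefore keep their labels here, and whether the tissue of the near-identical pair matches its labels was not tested. Below, 2 values for a label are always given as array 1 and then array 2, in log2 units, where a difference of 1 means 2-fold.

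In the heart, pyruvate enters mitochondria through a carrier and is oxidised to acetyl-CoA by the pyruvate dehydrogenase complex, or carboxylated to oxaloacetate. The citric acid cycle burns acetyl-CoA, from fatty acids and pyruvate alike, and delivers NADH to the respiratory chain. Cytosolic NADH cannot cross the inner membrane, so the malate-aspartate shuttle, which is the main route in cardiac muscle, and the glycerophosphate shuttle carry its electrons in. Heart tissue was evident on every array: the 8 cardiomyocyte markers measured, among them Myh6 and Tnnt2, read 12.24 or more throughout.

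Upstream sequence was available in the RefSeq promoter table (GRCm38.p6) for 29 of the 30 genes; no entry was found for Idh3a. The 250 bases before each start were searched on both strands for the letters AAGGTCA, bound by estrogen-related receptors, CGCATGCG, the core bound by NRF1, and CCGGAAGT, a core bound by ETS factors such as GABPA, since these factors are known regulators of mitochondrial genes. AAGGTCA was found in 1 gene, Got1, CGCATGCG in 1 gene, Ogdh, before 2 of its 6 annotated starts, and CCGGAAGT in 0 genes. The listed genes had 37 promoter windows, of which 1, 2 and 0 held the respective letters. Over all 32851 promoter windows the shares were 4.08%, 1.55% and 2.88%. The 3 stretches below belong to Ogdh, which was the only listed gene higher on NTg 2 than on the near-identical pair, to Slc25a13, which had the widest range over the arrays, and to Got1, which holds the other match. Capitals mark a match, and the Slc25a13 stretch has none.
Ogdh, chr11:6292458-6292557, plus strand, ending 1 base before the start: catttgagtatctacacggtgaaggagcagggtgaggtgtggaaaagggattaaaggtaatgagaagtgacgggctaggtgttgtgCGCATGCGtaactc
Got1, chr19:43524756-43524855, minus strand, beginning 250 bases before the start: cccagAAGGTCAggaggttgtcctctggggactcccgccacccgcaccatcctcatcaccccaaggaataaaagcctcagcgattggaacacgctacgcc
Slc25a13, chr6:6217174-6217273, minus strand, ending 1 base before the start: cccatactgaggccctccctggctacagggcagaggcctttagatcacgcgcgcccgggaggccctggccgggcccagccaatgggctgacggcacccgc
These matches are of letters only.

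Between the labels, none of the 29 genes passed the test. Log2 fold changes, as the Tg-Sirt1 mean minus the NTg mean, ran from -0.31 for Ogdh to 0.37 for Slc25a13, with a median of 0.07 against 0.015 over all genes. The Tg-Sirt1 mean was higher for 20 genes, lower for 8 and equal for Idh3b. In whole tissue, fewer cells of a type and less RNA per cell cannot be told apart. With each array centred on its median 26 were higher and 3 lower, and after a second quantile normalization 18 were higher and 11 lower. Single arrays also set the direction: without NTg 2 the median was -0.06, with 6 higher and 23 lower, and without NTg 1 it was 0.20, with 26 higher. The lowest unadjusted p among them was 0.178 for Pdhb, and the adjusted p in limma was 0.994 or more for each of the 29. Over all genes 0% were called and 10 had an unadjusted p under 0.05, none of them a listed gene. These 10 are far below a share of 0.05 of the 18193 genes. With near-identical arrays under opposite labels, the 4 arrays do not behave as the independent samples that the fit assumes. Its p-values, SE and confidence intervals may therefore be miscalibrated. Both Tg-Sirt1 arrays lay above both NTg arrays for 3 listed genes, Dld, Idh3g and Gpd2, against 11.4% of all genes. Both lay below for 0 listed genes, against 9.3% of all genes. The 95% confidence intervals all contained 0, and their outer limits were -0.82 for Ogdh and 1.25 for Slc25a13. An exact permutation test of 2 arrays against 2 cannot give a two-sided p below 0.333, and the absence of calls does not show that these genes were alike.

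**Figure D1:**
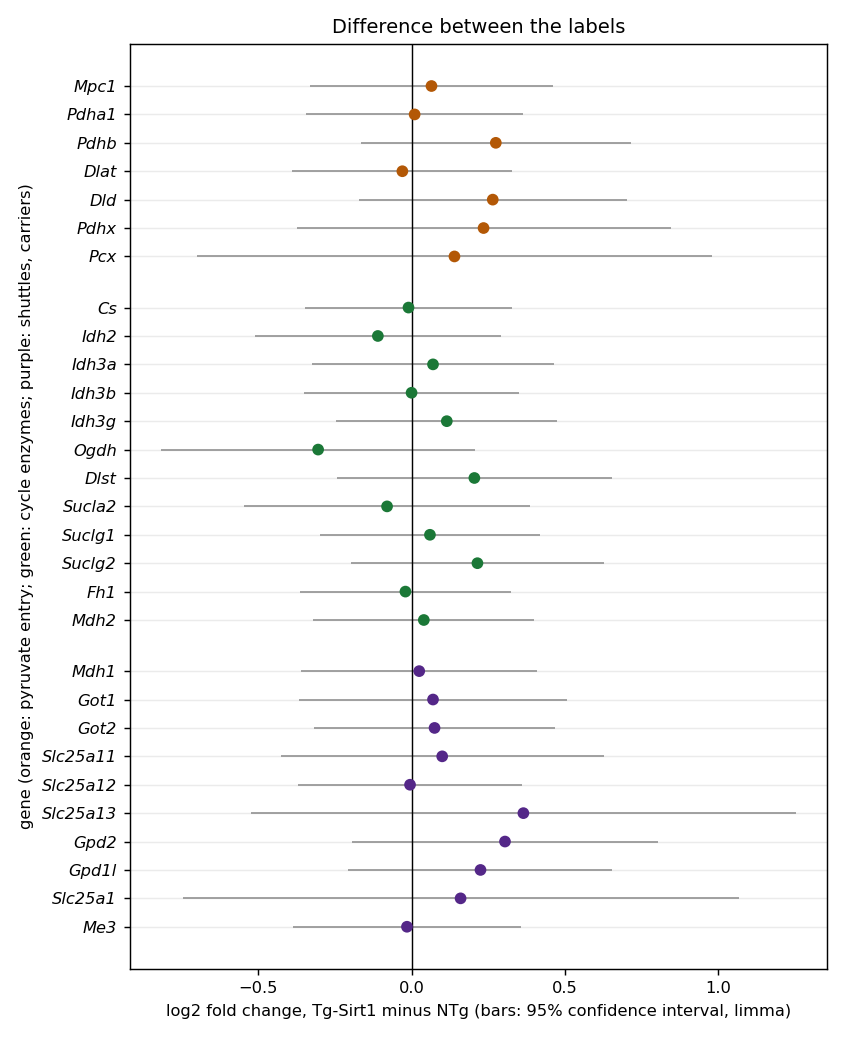
Log2 fold change of each of the 29 genes, Tg-Sirt1 minus NTg, on the horizontal axis, with dots coloured by role and bars for the 95% confidence interval from limma (2 arrays per label). Every bar crosses 0, the lowest dot is Ogdh at -0.31 and the highest is Slc25a13 at 0.37.

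Of pyruvate entry, 6 of the 7 measured genes had a higher Tg-Sirt1 mean, with a median log2 fold change of 0.14. Without NTg 2 this median was -0.07, and without NTg 1 it was 0.45. The beta subunit gene of pyruvate dehydrogenase, Pdhb, gave 12.95 and 12.60 in NTg and 12.95 and 13.15 under the Tg-Sirt1 label. It was thus low on NTg 2 and high on Tg-Sirt1 2, and its log2 fold change was 0.28 ± 0.18 (SE; n = 2 per label; limma adjusted p = 0.994). Dld, the dihydrolipoamide dehydrogenase that the pyruvate and 2-oxoglutarate dehydrogenase complexes share, gave 11.12 and 10.74 in NTg against 11.14 and 11.25, so its labels did not overlap, by a margin of 0.02 between NTg 1 and the array labelled Tg-Sirt1 1. Pdhx, which anchors Dld within the pyruvate dehydrogenase complex, gave 10.85 and 10.16 against 10.84 and 10.64. It was lowest on NTg 2 and next lowest on Tg-Sirt1 2.

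On their brightest probe sets the other subunit genes of the complex moved less. Pdha1, the alpha subunit of the first enzyme, stayed between 13.09 and 13.21, and Dlat, the acetyltransferase core, between 10.94 and 11.10. Some dimmer probe sets moved more. For Pdha1 such a probe set gave 11.58 and 10.90 in NTg against 11.57 and 10.65. For Dlat the dimmest gave 10.69 and 10.43 against 10.70 and 10.93, while another stayed between 10.87 and 11.09. Mpc1, a subunit of the mitochondrial pyruvate carrier, gave 12.37 and 12.10 in NTg and 12.36 and 12.24 under the other label, where each label's array 2 was the lower one. Its partner Mpc2 was not analysed here.

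Pcx, the pyruvate carboxylase that refills oxaloacetate, stood apart from the dehydrogenase genes. It gave 8.20 and 7.29 in NTg and 8.18 and 7.59 under the Tg-Sirt1 label, which put NTg 2 1.87-fold and Tg-Sirt1 2 1.52-fold below the mean of the near-identical pair. Its log2 fold change of 0.14 ± 0.34 (SE) was the balance of these 2 low arrays. The array also carries 4 control probe sets along the Pcx transcript, which were kept out of the fit although the 3' one was brighter than the representative. The 3' control gave 8.64 and 8.11 in NTg and 8.61 and 8.27 in Tg-Sirt1, the same order as the representative. A control from the middle of the transcript gave 6.71 and 6.16 against 6.69 and 6.23, but another middle control differed by at most 0.17 from the pair and the 5' control by at most 0.105.

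The cycle enzymes varied least of the 3 roles. Their median range over the 4 arrays was 0.245 log2 units, against 0.51 for pyruvate entry, 0.41 for the shuttles and 0.34 for all genes; the median log2 fold change was 0.02, with 6 of 12 higher, 5 lower and 1 equal. That median was -0.0475 without NTg 2 and 0.09 without NTg 1. Citrate synthase, Cs, which starts the cycle and is widely used as a marker of mitochondrial content, stayed between 12.95 and 13.01 on its brightest probe set. Another Cs probe set ran from 12.77 to 12.96, and the dimmest ran from 10.41 to 11.67. Fumarase, Fh1, stayed between 12.26 and 12.35, and Suclg1, the subunit common to both succinyl-CoA synthetases, between 11.91 and 12.09. Of the 3 subunits of the NAD-dependent isocitrate dehydrogenase, Idh3a ran from 12.19 to 12.46 and Idh3b from 11.62 to 11.73. The third, Idh3g, gave 12.36 and 12.18 in NTg and 12.37 and 12.40 in Tg-Sirt1, and its labels were separated by only 0.01. Idh2, the NADP-dependent isocitrate dehydrogenase, ran from 12.87 on Tg-Sirt1 2 to 13.18 on NTg 1.

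Ogdh and Dlst encode enzymes of the 2-oxoglutarate dehydrogenase complex. Ogdh, the first enzyme, gave 12.22 and 12.29 in NTg and 12.22 and 11.68 under the Tg-Sirt1 label. Tg-Sirt1 2 alone was low, by 0.54 from the near-identical pair or 1.45-fold, and the log2 fold change was -0.31 ± 0.21 (SE; limma unadjusted p = 0.195). Dlst, the second enzyme of the same complex, gave 12.18 and 11.76 in NTg against 12.18 and 12.17, so that NTg 2 alone was low. Dld, the last enzyme of the complex, was also lowest on NTg 2. Without Tg-Sirt1 2 the log2 fold change of Ogdh was -0.035, and without NTg 2 that of Dlst was -0.005. The contrast depended on the probe set. A dimmer Ogdh probe set was also low on NTg 2, by 0.305. The brightest of the other Dlst probe sets was again lowest on NTg 2, with 8.01 and 7.65 in NTg against 7.99 and 8.44. The next gave 7.73 and 7.85 in NTg against 7.81 and 7.57, and the dimmest 5.65 and 5.67 against 5.76 and 6.28.

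The alternative beta subunits of succinyl-CoA synthetase went opposite ways on Tg-Sirt1 2. Sucla2, the ADP-forming one, gave 12.52 and 12.34 in NTg and 12.56 and 12.14 in Tg-Sirt1, and Tg-Sirt1 2 was its lowest array. Suclg2, the GDP-forming one, gave 11.33 and 11.19 against 11.32 and 11.63, and Tg-Sirt1 2 was its highest. A dimmer Suclg2 probe set was not higher there and read 9.54 and 9.55 in NTg and 9.54 and 9.44 in Tg-Sirt1. The last enzyme of the cycle, Mdh2, gave 13.28 and 13.11 against 13.27 and 13.20.

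**Figure D2:**
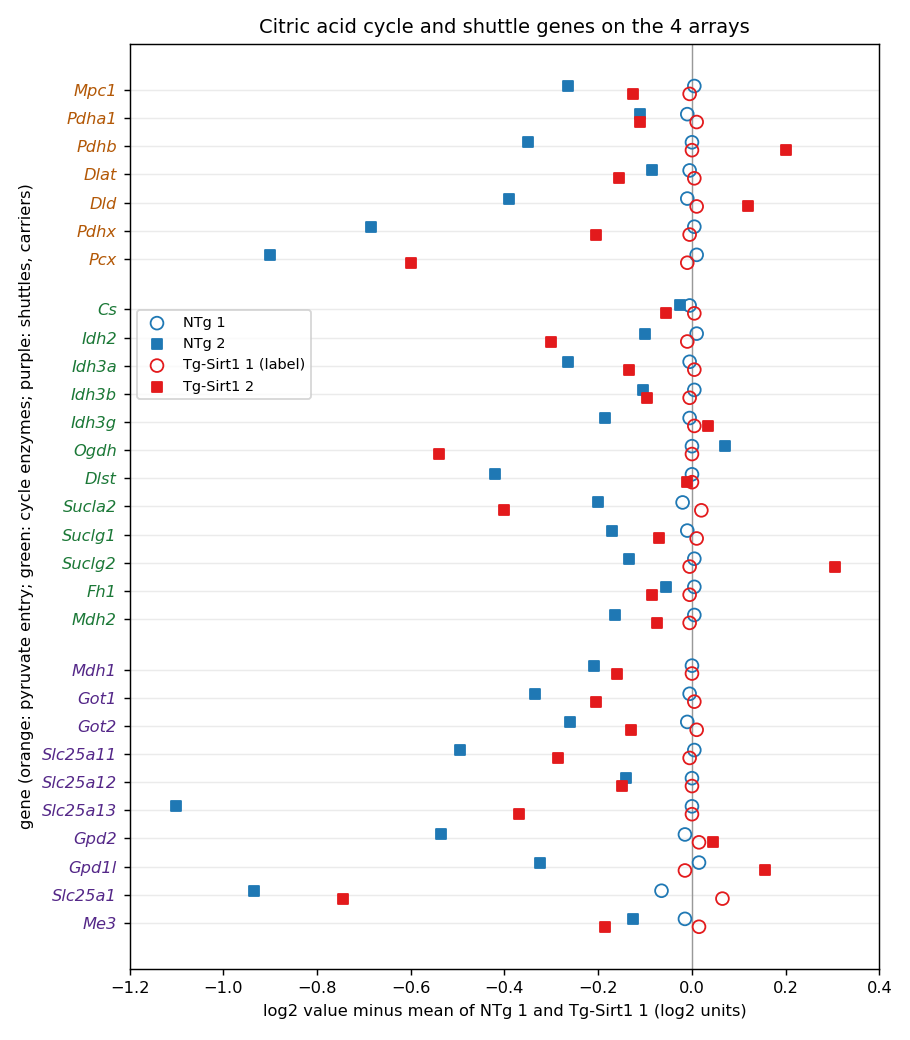
Each of the 29 genes (vertical axis) on the 4 arrays, as the log2 value minus the mean of NTg 1 and the array labelled Tg-Sirt1 1 (horizontal axis). Open circles are those 2 near-identical arrays, blue squares NTg 2 and red squares Tg-Sirt1 2: blue squares lie to the left of 0 for 28 genes, with Ogdh the exception, and red squares for 23.

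Of the shuttle and carrier genes, 8 of 10 had a higher Tg-Sirt1 mean, with a median log2 fold change of 0.09. Without NTg 2 this median was -0.0775, and without NTg 1 it was 0.29. The widest range belonged to Slc25a13 (citrin), one of the pair of mitochondrial aspartate-glutamate carriers. It gave 11.11 and 10.01 in NTg and 11.11 and 10.74 under the Tg-Sirt1 label, so NTg 2 was 2.14-fold and Tg-Sirt1 2 1.29-fold below the near-identical pair. The log2 fold change was 0.37 ± 0.36 (SE; limma unadjusted p = 0.354); it was 0.92 without NTg 1 and -0.19 without NTg 2. The other carrier of this kind, Slc25a12 (aralar), gave 10.70 and 10.56 against 10.70 and 10.55, with array 2 of each label lower by about the same amount. Slc25a11, the oxoglutarate-malate carrier that works with them, ran from 11.29 on NTg 2 to 11.79 on NTg 1.

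For the brightest probe sets of the malate-aspartate shuttle enzymes the arrays had the same order. Cytosolic malate dehydrogenase, Mdh1, gave 13.94 and 13.73 in NTg and 13.94 and 13.78 in Tg-Sirt1. The cytosolic aspartate aminotransferase, Got1, gave 12.50 and 12.17 against 12.51 and 12.30, and its mitochondrial counterpart Got2 gave 13.05 and 12.80 against 13.07 and 12.93. In all 3, and in Mdh2 and Slc25a11, NTg 2 was the lowest array and Tg-Sirt1 2 the next. Other probe sets did not keep this order. One of Mdh2 gave 13.15 and 13.19 in NTg against 13.17 and 12.86, and one of Mdh1 gave 11.93 and 12.21 against 11.96 and 11.80. With all probe sets averaged, the log2 fold changes of Mdh1, Mdh2 and Got2 turned from 0.03, 0.04 and 0.08 to -0.11, -0.06 and -0.05.

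On their brightest probe sets the glycerophosphate dehydrogenase genes Gpd2 and Gpd1l had another order, with NTg 2 low and Tg-Sirt1 2 the highest array. Gpd2, the mitochondrial enzyme of that shuttle, gave 8.19 and 7.67 in NTg and 8.22 and 8.25 under the Tg-Sirt1 label, a log2 fold change of 0.31 ± 0.20 (SE; limma unadjusted p = 0.185). Its labels were separated by 0.03. Gpd1l, a relative of the cytosolic enzyme, gave 10.68 and 10.34 against 10.65 and 10.82. A dimmer probe set of each of these genes was instead lowest on Tg-Sirt1 2. With all probe sets averaged the log2 fold change was -0.10 for Gpd2 and 0.07 for Gpd1l. The partner enzyme Gpd1, which was not on the list of 30, went the other way, with 8.59 and 8.87 in NTg and 8.61 and 7.76 in Tg-Sirt1.

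Slc25a1, the citrate carrier that exports citrate for lipid synthesis, was low on both arrays numbered 2. It gave 7.58 and 6.71 in NTg and 7.71 and 6.90 in Tg-Sirt1, which placed NTg 2 1.91-fold and Tg-Sirt1 2 1.68-fold below the pair. Me3, the mitochondrial malic enzyme that uses NADP, stayed between 9.54 and 9.74. Pcx and Slc25a1 are known to be abundant in fat tissue. The adipocyte markers Adipoq and Ucp1 were also low on both arrays numbered 2, but Cidec was not low on NTg 2. Adipoq gave 7.50 and 5.92 in NTg and 7.56 and 6.79 in Tg-Sirt1. Ucp1 gave 7.26 and 6.23 against 7.34 and 5.97, so it was lowest on Tg-Sirt1 2, whereas Pcx and Slc25a1 were lowest on NTg 2. Cidec was dim throughout, with 4.71 and 4.71 against 4.79 and 4.39. Of 4 adipocyte markers listed, 3 were measured, and their summed linear signal was 360 and 162 in NTg and 378 and 194 in Tg-Sirt1. The part of these markers in the Pcx and Slc25a1 values was not tested.

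The pattern shared by most of the 29 genes ran across the labels. On NTg 2, 28 of them lay below both NTg 1 and the array labelled Tg-Sirt1 1, against 46.7% of all genes, with a median difference from that pair of -0.21 against -0.005 over all genes. NTg 2 was the lowest of the 4 arrays for 20 genes (69.0%), near the share among genes with a mean of at least 10 (69.8%) and above that of all genes (37.9%). Bright genes were low on this array too: among the 1872 genes with a mean of at least 10, which include 25 of the 29, 80.8% lay below the pair on NTg 2 and the median was -0.24. After a second quantile normalization 18 of 29 lay below the mean of the pair on NTg 2, against 52.2% of the bright genes. The median was then -0.08 for the 29 and -0.04 for the 25 bright ones among them, against -0.02 for all bright genes. The 4 genes furthest below on NTg 2 after that step were Slc25a1 (-0.92), Slc25a13 (-0.86), Pcx (-0.81) and Pdhx (-0.45).

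On Tg-Sirt1 2, 23 of the 29 genes lay below both arrays of the pair, against 35.7% of all genes and 45.6% of the bright ones. The median difference was -0.13, against 0.04 over all genes and 0.01 over the bright ones. A second quantile normalization brought this to 20 of 29 below the mean of the pair, against 40.1% of the bright genes. The median was then -0.05 for the 29 and -0.04 for the 25 bright ones among them, against 0.05 for all bright genes. The 6 exceptions, all higher on Tg-Sirt1 2, were Suclg2, Pdhb, Gpd1l, Dld, Gpd2 and Idh3g. Both NTg 2 and Tg-Sirt1 2 lay below the pair for 22 of the 29, against 20.8% of all genes and 38.7% of the bright ones. These 2 comparisons share the pair of near-identical arrays, and each sets 1 array against it, so they carry no test. The cardiomyocyte markers were also slightly below the pair, by a median of 0.08 on NTg 2 (8 of 8 lower) and 0.12 on Tg-Sirt1 2 (6 of 8 lower). Markers of other cells also differed between arrays. The summed linear signal of 6 fibroblast markers was 20200 and 11600 in NTg and 20200 and 15500 in Tg-Sirt1, that of 5 endothelial markers 5000 and 3740 against 5000 and 3760, and that of 4 macrophage markers 3130 and 2500 against 3140 and 3110. The markers within a sum did not all move alike. On Tg-Sirt1 2, 5 fibroblast markers lay below the pair and 1 above, Pdgfra, with 9.82 and 9.31 in NTg against 9.81 and 9.97. Of the endothelial markers 4 lay below the pair there and 1 above, Tek, with 9.82 and 9.34 against 9.78 and 10.09. Cdh5 differed from the pair by only 0.025 on NTg 2 and -0.035 on Tg-Sirt1 2, and Kdr by -0.495 and -0.815. On Tg-Sirt1 2, 2 of the macrophage markers lay below the pair and 2 above. Of these, C1qa gave 9.30 and 8.88 in NTg against 9.29 and 8.18, and Csf1r 10.99 and 10.66 against 11.00 and 11.19. For 3 neutrophil markers the summed signal was 183 and 536 against 174 and 215, so NTg 2 alone stood out. The sum of 5 skeletal muscle markers, 8730 and 7230 against 8730 and 5970, was nearly all Ckm, the muscle creatine kinase that the heart also expresses. The other 4 read 6.04 or less and were each higher on NTg 2 than on the pair. For the 2 measured erythroid markers the sum was 374 and 282 against 355 and 395. None of these markers passed the test, and their part in the values of the 29 genes was not tested.

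**Figure D3:**
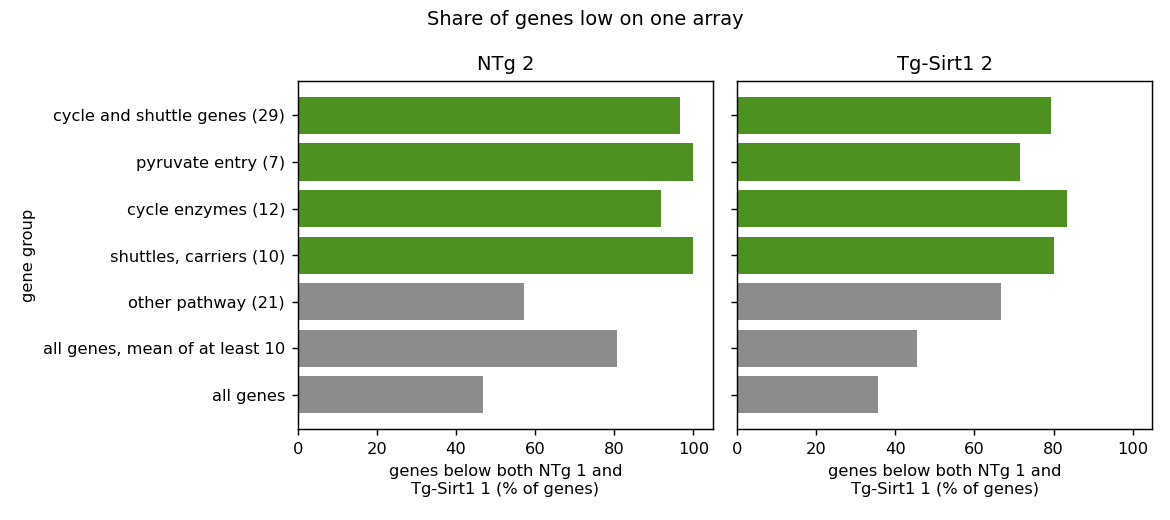
Percentage of genes whose value lay below both NTg 1 and the array labelled Tg-Sirt1 1, on NTg 2 (left) and Tg-Sirt1 2 (right), for the 29 genes, their 3 roles, 21 other genes of the pathway, the 1872 genes with a mean of at least 10 and all 18193 genes. On NTg 2 the share was 96.6% for the 29 genes and 80.8% for the bright genes, and on Tg-Sirt1 2 it was 79.3% and 45.6%.

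Other probe sets of the same genes often differed from the representative. Of 35 other probe sets, covering 19 of the 29 genes, 20 had a log2 fold change that did not share the representative's sign, and 0 had an unadjusted p under 0.05. Of the 26 that were brighter than the median probe set, 6 lay more than 0.5 below the pair on Tg-Sirt1 2 (23.1%, against 18.8% for such probe sets of all genes), and 5 of these 6 did so on NTg 2 as well. A dimmer Cs probe set gave 11.66 and 10.89 in NTg and 11.67 and 10.41 under the Tg-Sirt1 label, whereas the representative ranged over 0.06. For Got2 such a probe set gave 11.77 and 11.21 against 11.77 and 10.54, and for Pdha1 11.58 and 10.90 against 11.57 and 10.65. In each of these 3 genes the brightest probe set stayed within 0.26 of the pair on both arrays numbered 2.

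For Gpd1l and Gpd2 the choice of probe set turned the direction on Tg-Sirt1 2. A dimmer Gpd2 probe set gave 7.38 and 6.62 in NTg and 7.30 and 5.59 in Tg-Sirt1, and one of Gpd1l gave 8.44 and 7.84 against 8.41 and 7.71. Ogdh was low on Tg-Sirt1 2 in both of its probe sets, the second with 8.40 and 8.05 against 8.31 and 7.18. Idh3a went the other way: its 3 other probe sets were all higher on Tg-Sirt1 2 than on the pair, for example 11.31 and 11.28 against 11.33 and 11.62. The control transcripts with probe sets at the 3' and 5' ends varied on the same arrays. The 3' minus 5' signal of Gapdh was 0.18 and 0.69 in NTg and 0.19 and 1.34 in Tg-Sirt1, and that of Actb 1.22 and 1.44 against 1.25 and 1.92. Larger values mark a 5' end that is weaker relative to the 3' end. The other 3 control transcripts had other orders. For 18S rRNA, which is not an mRNA, the difference was 1.75 and 2.73 against 1.86 and 1.44, lowest on Tg-Sirt1 2. Whether it reports on mRNA integrity here was not determined. For Pcx it was 1.47 and 0.87 against 1.41 and 1.19, and for the transferrin receptor 2.64 and 2.04 against 2.61 and 2.64, both lowest on NTg 2. The 5' Pcx control stayed between 7.08 and 7.24 while the 3' one ran from 8.11 to 8.64. The Pcx difference thus moved mainly with its 3' signal. Where each probe set lies on its transcript was not determined, and the part of RNA integrity in these values was not tested.

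**Figure D4:**
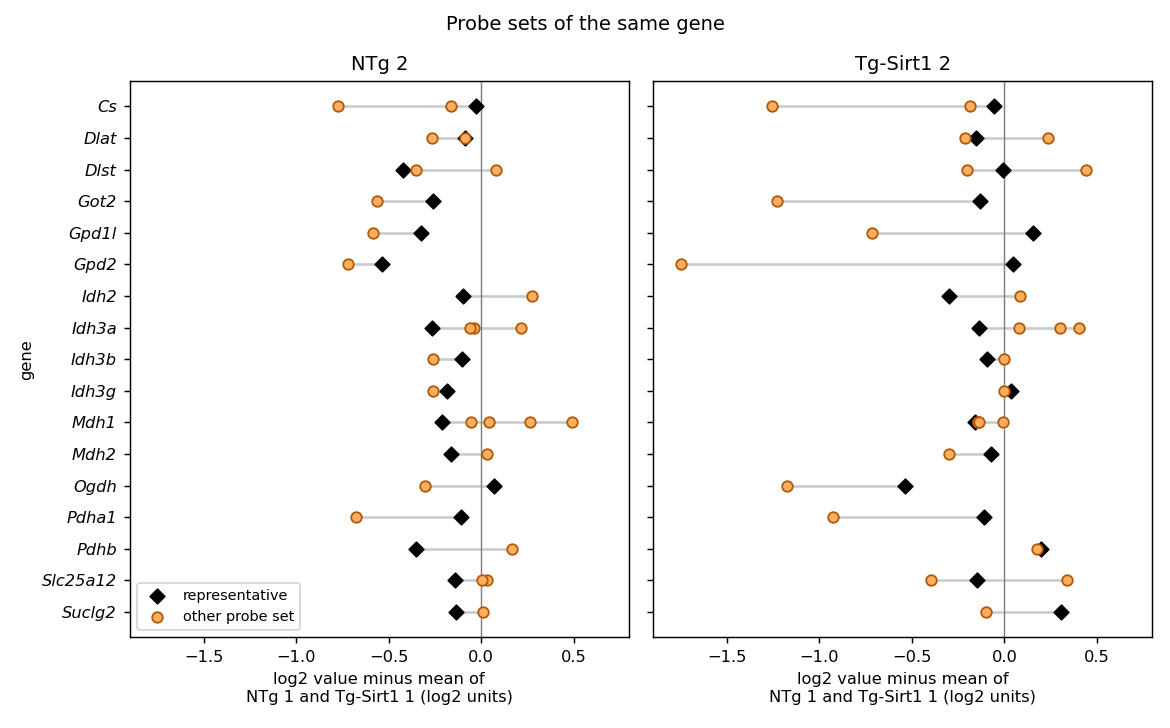
Difference in log2 units from the mean of NTg 1 and the array labelled Tg-Sirt1 1 on NTg 2 (left) and Tg-Sirt1 2 (right) for the 17 genes with another probe set brighter than the median. Black diamonds are the representatives and orange circles the other probe sets, and on Tg-Sirt1 2 circles of Gpd2 (-1.75), Cs, Got2, Ogdh, Pdha1 and Gpd1l lie more than 0.5 below 0.

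Of 23 other genes of the pathway, 21 were measured and 0 passed the test; 9 had a higher and 12 a lower Tg-Sirt1 mean, with a median log2 fold change of -0.045. The 4 of lowest p were Pdp1, Aco1, Gpd1 and Pdp2. Pdp1, a phosphatase that activates pyruvate dehydrogenase, gave 8.60 and 8.08 in NTg and 8.60 and 9.0 in Tg-Sirt1, while the related phosphatase Pdp2 gave 7.62 and 7.81 against 7.58 and 7.11. Cytosolic aconitase, Aco1, gave 9.58 and 9.31 against 9.59 and 10.30, so Tg-Sirt1 2 alone was high. The widest difference in this list was that of Pdk4, a kinase that inactivates pyruvate dehydrogenase, named after its values were seen. It gave 10.26 and 13.01 in NTg and 10.27 and 10.55 in Tg-Sirt1, so NTg 2 was 6.70-fold above the near-identical pair, and its log2 fold change was -1.23 ± 0.81 (SE; limma unadjusted p = 0.182). The succinate dehydrogenase subunits Sdha, Sdhb, Sdhc and Sdhd, which link the cycle to the respiratory chain, had log2 fold changes of -0.11, 0.06, 0.03 and 0.26; they were singled out after their values were seen.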

How the data were processed

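Total RNA from mouse heart was hybridised to 4 Affymetrix arrays. The deposited values are on the log2 scale, 1 per probe set and array, and per the submitters' processing notes the tools used were RMA and the Expression Console software of Affymetrix. RMA usually includes a quantile step, which would remove a change in total RNA, but the deposited arrays were not alike in distribution: the 95th percentile was 10.09 on NTg 2 and 10.31 to 10.34 on the others. Of 45101 probe sets, 64 controls were left out. Among the 45037 others, 34945 had 1 gene symbol in the platform annotation, 932 several and 9160 none. For each of 18193 genes the brightest probe set with 1 symbol was kept. Tg-Sirt1 was compared with NTg on the deposited values in limma 3.58.1 (R 4.3.3), with lmFit and eBayes, two-sided, and Benjamini-Hochberg adjustment over all genes at 0.05. The fit had 2 residual and 3.97 prior degrees of freedom. The fit was tested on simulated data with independent arrays, which held no near-identical pair as these data do. SE and confidence intervals are from this fit. Detection calls and scan dates were not used here, and the number of arrays limits the precision.

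The listed genes, the pathway and marker lists and the alternatives were chosen with earlier results of these data known. Values on all arrays are given for the 4 genes of lowest p in each role, the 4 furthest from the near-identical pair on NTg 2 and on Tg-Sirt1 2, and genes that form pairs by function, as for the 4 other pathway genes of lowest p. The remaining genes are given by range. Alternatives covered the replicate block, each array left out, the near-identical pair counted once, scaling, an offset, the prior, a filter on dim probe sets and the choice of probe set. Other probe sets cited as examples were chosen after their values were seen.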

Additional observations from a re-analysis of the deposited data

How the results depend on the processing

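In all 15 alternatives run across genes, 0 genes passed in limma, with 0 to 2603 at an unadjusted p under 0.05. The lowest adjusted p of a listed gene was 0.337 with the near-identical pair counted once as Tg-Sirt1 and 0.385 without NTg 1, with 5 listed genes at an unadjusted p under 0.05 in each. Those fits leave 1 array under a label, assumed to vary like the others. With the replicate number as a block, 0 genes passed and the lowest adjusted p of a listed gene was 0.935. The numbers are only shared labels; across genes the differences between arrays 1 and 2 of the labels had r = 0.207, and both contain the near-identical arrays.

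Leaving out each array moved the median log2 fold change of the 29 genes between -0.06 (without NTg 2) and 0.20 (without NTg 1), that of pyruvate entry between -0.07 and 0.45, of the cycle enzymes between -0.0475 and 0.09, of the shuttles between -0.0775 and 0.29, and of the other pathway genes between -0.095 and 0.025. With the pair counted once as Tg-Sirt1 the median was 0.45 for pyruvate entry and 0.29 for the shuttles. Without NTg 2, 14 of the 29 genes changed sign, without Tg-Sirt1 2 7, and with all probe sets averaged per gene 6; after a second quantile normalization 2 did, Pdha1 and Suclg1. For the cycle enzymes the median was -0.0225 after a second quantile normalization. The median difference on NTg 2 from the pair was 0.005 over the 35 other probe sets but -0.0575 over the brighter 26, an alternative chosen after seeing the data.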
